A study of Danio rerio with 12 samples.

Results

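The solute carriers described here move amino acids and monocarboxylates, such as lactate and pyruvate, across cell membranes. They were taken as the gene IDs whose symbol, ignoring case, begins with SLC1A, SLC3A, SLC6A, SLC7A, SLC16A, SLC36A, SLC38A or SLC43A, which gave 87 of the 33737 gene IDs counted. The counts come from 12 libraries of testis tissue from adult, wild-type zebrafish, each kept in culture for 48 h. The Fsh group of 6 libraries was incubated with Fsh, the pituitary follicle-stimulating hormone, in the presence of trilostane, which blocks an enzyme of steroidogenesis. The 6 control libraries had trilostane alone, so both groups share that block. The submitters call the 6 libraries of a group biological replicates, and the sources used here do not say how many fish went into each. The comparison asks how these transporters differ with Fsh in the presence of that inhibitor.

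Developing germ cells of the testis depend on the Sertoli cells that enclose them for much of their nutrition, and in mammals Sertoli cells turn glucose into lactate, which germ cells take up through proton-linked monocarboxylate carriers of the SLC16 family. Amino acid carriers of the SLC7 family often work as pairs: a light chain that carries the substrate is joined to a heavy chain of the SLC3 family that brings it to the cell surface. Other families are coupled to sodium or protons and import single classes of substrate, such as glutamate (SLC1), taurine, creatine, glycine, GABA or monoamines (SLC6), glutamine and small neutral amino acids (SLC38 and SLC36), while SLC43 members carry large neutral amino acids or nucleobases.

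Of the 87 transporter genes, 69 passed the filter on low counts and were tested, and 4 of these were called higher with Fsh and none lower (edgeR quasi-likelihood test, Benjamini-Hochberg adjusted p under 0.05 over all tested genes). They were SLC7A6, a cationic amino acid light chain, SLC3A2, the heavy chain it pairs with, and a pair of monocarboxylate carriers, SLC16A8 and slc16a7. Over all 19317 tested genes, 0.865% were called higher, 0.766% lower and 1.63% in either direction. For the same 4 transporters every Fsh library lay above every control library, and for none did every Fsh library lie below; over all tested genes this held for 1.11% and 0.818%, or 1.93% in all. At an unadjusted p under 0.05, 13 members were higher and 2 lower in edgeR, 21.7% of the members tested against 17.4% of all tested genes. DESeq2 called 8 members higher and none lower, and limma-voom called 6 higher and none lower, where in either direction DESeq2 called 4.70% and limma-voom 1.87% of all genes with an adjusted p. The log2 fold change was above 0 for 43 of the 69 members, or 62.3%, and for 50.3% of all tested genes, with medians of 0.07 and 0.00. In tissue such as this, more cells of a type and more RNA per cell cannot be told apart.

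**Figure D1:**
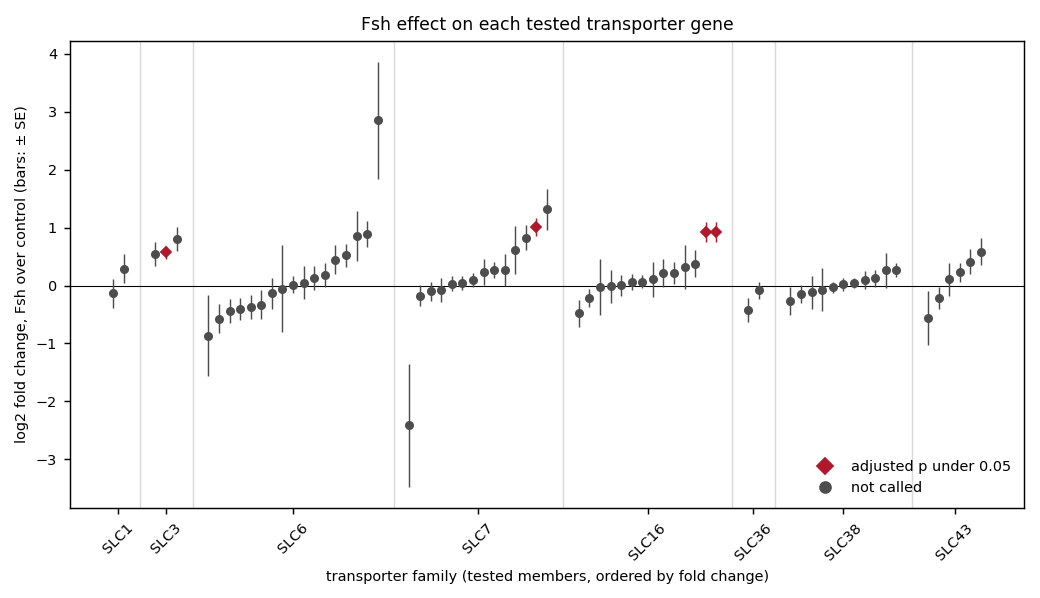
Log2 fold change of Fsh over control (y axis) for each of the 69 tested transporter genes, ordered by fold change within 8 families (x axis); bars are ± SE and red diamonds mark the 4 genes with an adjusted p under 0.05. The 4 called genes lie between 0.57 and 1.01, while the largest estimates in each direction, SLC6A2 at 2.85 and slc7a2 at −2.41, have SEs of 1.01 and 1.06.

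The libraries held between 6735718 and 11367899 counts in the Fsh group and between 4695095 and 11497588 in controls. A count of 0 allows up to 3 counts, or 0.259 to 0.437 CPM (counts scaled by library size) in Fsh libraries and 0.263 to 0.641 CPM in controls, and this limit covers counting error only. Summed spermatocyte markers ran from 1777 to 2871 CPM in Fsh libraries and from 2031 to 3198 CPM in controls. Among them SYCP1, a protein of the synaptonemal complex of meiotic chromosomes, averaged 1649 CPM with Fsh and 1803 CPM in controls. Over all tested genes 0.865% were called higher and 0.766% lower. Of 18 Sertoli cell markers tested 5 rose and none fell. Their summed level ran from 969 to 1530 CPM in Fsh libraries against 919 to 1171 CPM in controls. Of 12 Leydig cell markers 2 rose and none fell, with sums of 377 to 779 CPM in Fsh libraries and 145 to 394 CPM in controls. Of 15 leukocyte markers 1 fell and none rose, with sums of 478 to 1498 CPM in Fsh libraries and 1237 to 1987 CPM in controls. Of 14 fibroblast and smooth muscle markers 3 rose and none fell, and of 11 endothelial markers 1 rose and 1 fell. At an unadjusted p under 0.05 there were 9 Sertoli, 8 Leydig, 7 leukocyte, 6 fibroblast and smooth muscle, and 4 endothelial markers. DESeq2 called 6, 4, 2, 4 and 3 of them, beside 17.4% and 4.70% of all genes by these rules. The median log2 fold changes of these lists were 0.33, 0.79, −0.56, 0.40 and 0.07. No list had a marker at 0 in every library. Spermatogonia, spermatocyte and spermatid lists of 12, 13 and 11 tested markers held no edgeR call. Their median log2 fold changes were −0.02, 0.31 and −0.04, beside 0.00 over all tested genes. Above 0 were 6, 11 and 4 of their markers, beside 50.3% of all tested genes. These 3 lists had 2, 3 and 1 members at an unadjusted p under 0.05 and 1, 0 and 1 called by DESeq2, beside 17.4% and 4.70% of all genes. What part these shifts have in the transporter results was not tested. The mean log2 CPM of the leukocyte markers was used as a covariate in 1 alternative fit. It stood at 3.17 to 3.73 in Fsh libraries other than library 5, below the controls at 3.79 to 4.92. Fsh library 5 stood at 4.77. The covariate thus largely follows the group, and values with it cannot tell leukocytes apart from Fsh.

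SLC7A6 encodes a light chain that exchanges cationic amino acids such as arginine for neutral ones. Its level ran from 54.4 CPM through a median of 74.6 CPM to 96.6 CPM in Fsh libraries, against 28.7, 34.6 and 50.5 CPM in controls. The groups did not overlap, with Fsh library 1 the lowest of its group and control library 6 the highest of its own. The gene rose 2.02-fold with Fsh (log2 fold change 1.01 ± 0.16 SE, n = 6 per group, edgeR adjusted p = 0.00851). It passed without any 1 of the 12 libraries, at adjusted p values from 0.0032 to 0.0283, and under all 9 other settings, from 2.49e-06 in DESeq2 to 0.0375 with the leukocyte covariate. The adjacent gene SLC7A6OS, which shares the name prefix but is not known as a transporter, averaged 15.4 ± 2.56 CPM with Fsh and 15.1 ± 1.55 CPM in controls (SD; log2 fold change 0.03 ± 0.13, edgeR adjusted p = 0.932). The sources used here do not state whether strand was used in counting, so reads of these neighbours could be shared.

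SLC3A2 encodes the heavy chain, known as 4F2hc, that joins SLC7A6 and several other light chains. Its level in Fsh libraries had a lowest, median and highest value of 97.7, 118 and 146 CPM, against 67.0, 80.0 and 86.5 CPM in controls. No Fsh library reached down to a control library. SLC3A2 rose 1.49-fold (0.57 ± 0.11, edgeR adjusted p = 0.0225). The call was lost without control library 5, Fsh library 2 or Fsh library 6 (edgeR adjusted p = 0.0615, 0.0747 and 0.0549, within a range of 0.0126 to 0.0747 over the 12 omissions). It was also lost with the leukocyte covariate (0.44, adjusted p = 0.0841) and with the replicate number as a block (0.56, adjusted p = 0.0710).

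The other copy, slc3a2a, averaged 16.4 ± 5.05 CPM with Fsh and 11.1 ± 2.36 CPM in controls. Of the Fsh libraries, 3 lay above every control, the highest being Fsh library 5 at 25.1 CPM, and the other 3 lay within the control range. The estimate was 0.55 ± 0.20 and did not pass (edgeR adjusted p = 0.183), although it did with the leukocyte covariate (0.84, adjusted p = 0.0452). The ratio of SLC3A2 to slc3a2a, on a log2 scale with 0.5 CPM added to each, averaged 2.84 ± 0.49 with Fsh and 2.79 ± 0.36 in controls (SD, n = 6 each). The difference of 0.05 did not pass (two-sided exact permutation test of the libraries, p = 0.833), and 1 pair was tested. The sources used here do not say how reads matching both copies were counted.

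SLC3A1 and SLC7A9 encode the heavy and light chain of another pair, which in mammals takes up cystine and cationic amino acids in kidney and gut. SLC3A1 had a lowest, median and highest level of 5.63, 7.03 and 9.97 CPM in Fsh libraries, against 3.07, 4.12 and 5.86 CPM in controls. Fsh library 6 lay below the highest control library, and the other 5 Fsh libraries lay above all controls. The estimate was 0.81 ± 0.21 and did not pass in edgeR (adjusted p = 0.0644), with a range of 0.0507 to 0.144 over the 12 omissions; DESeq2 called it (adjusted p = 0.0161).

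SLC7A9 ran from 8.75 through 10.8 to 19.3 CPM in Fsh libraries. In controls it ran from 2.62 through 3.65 to 11.7 CPM, and control library 6 alone reached the Fsh range. The estimate was 1.31 ± 0.35 and did not pass in edgeR (adjusted p = 0.0762). With control library 6 left out it was called (1.78, adjusted p = 0.0029, the lowest of a range up to 0.165 over the 12 omissions), as it was in DESeq2 (adjusted p = 0.0101) and in limma-voom (adjusted p = 0.0363). That control library also had the highest Leydig marker sum of its group, 394 CPM against at most 264 CPM in the other controls; a part of this in the result was not tested.

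Among other SLC7 light chains, SLC7A10 (ENSDARG00000051730), a copy of the small neutral amino acid exchanger asc-1, averaged 5.97 ± 1.88 CPM with Fsh and 3.39 ± 0.658 CPM in controls. Fsh library 5 was the 1 Fsh library that did not lie above all controls. The estimate of 0.83 ± 0.22 did not pass in edgeR (adjusted p = 0.0737), and passed without Fsh library 5 (adjusted p = 0.0332; range 0.0332 to 0.165) and in DESeq2 (adjusted p = 0.0233). The other copy, SLC7A10 (ENSDARG00000008100), averaged 56.9 ± 6.25 and 47.6 ± 10.2 CPM in Fsh and control libraries (0.26 ± 0.14, edgeR adjusted p = 0.351). SLC7A8, a light chain for large neutral amino acids, averaged 84.1 ± 14.4 CPM with Fsh and 94.7 ± 27.2 CPM in controls (−0.17 ± 0.18, edgeR adjusted p = 0.665). SLC7A7, the closest relative of SLC7A6 in mammals, averaged 6.88 ± 2.71 and 5.68 ± 2.17 CPM in Fsh and control libraries (0.26 ± 0.27, edgeR adjusted p = 0.665). No gene ID carries the symbol slc7a5, the light chain LAT1, and the cystine carrier slc7a11 was too low to test, at 12 counts over the Fsh libraries.

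The SLC7 family also holds cationic amino acid carriers that need no heavy chain, and none of those passed. SLC7A3 (ENSDARG00000020645) averaged 188 ± 37.0 CPM with Fsh and 160 ± 61.0 CPM in controls (0.23 ± 0.23, edgeR adjusted p = 0.649), and its sign changed with the leukocyte covariate (−0.02). slc7a1a averaged 2.71 ± 0.389 CPM with Fsh and 2.86 ± 0.770 CPM in controls (−0.08 ± 0.20, edgeR adjusted p = 0.884), with a sign that varied when libraries were left out.

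**Figure D2:**
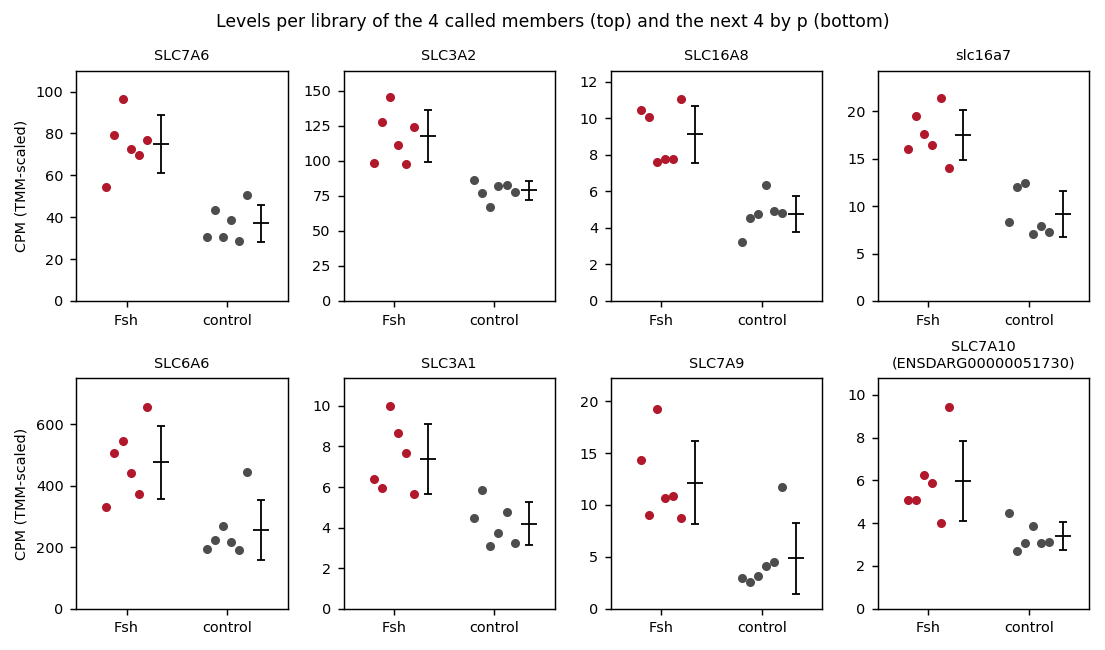
Level of 8 transporter genes in each library (y axes, CPM from 0), with Fsh libraries in red left of control libraries in grey; bars give the mean ± SD of 6 libraries. The top row shows the 4 called genes, whose groups do not overlap, and the bottom row the 4 with the next smallest p, in 2 of which control library 6 (SLC6A6 at 445 CPM, SLC7A9 at 11.7 CPM) reaches the Fsh range.

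Monocarboxylate carriers supplied the other calls. SLC16A8, known as MCT3 and in mammals best known from the retinal pigment epithelium, where it moves lactate, ran from 7.62 through 8.91 to 11.1 CPM in Fsh libraries. In controls it ran from 3.20 through 4.76 to 6.33 CPM. Every Fsh library lay above every control library. It rose 1.91-fold (0.93 ± 0.17, edgeR adjusted p = 0.0198). Without control library 5 or Fsh library 2 it missed the threshold (edgeR adjusted p = 0.0529 and 0.0553, in a range of 0.0176 to 0.0553 over the 12 omissions). It also missed it with the leukocyte covariate (0.83, adjusted p = 0.0622) and with the replicate number as a block (0.93, adjusted p = 0.0565).

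slc16a7, known as MCT2, is in mammals a carrier with high affinity for pyruvate and lactate. It had lowest, median and highest levels of 14.0, 17.0 and 21.4 CPM in Fsh libraries, against 7.04, 8.09 and 12.4 CPM in controls. Again the groups did not overlap, with control libraries 2 and 3 the highest of their group. The gene rose 1.90-fold (0.93 ± 0.17, edgeR adjusted p = 0.0199). It missed the threshold without control library 1, control library 5 or Fsh library 2 (edgeR adjusted p = 0.0507, 0.0653 and 0.0591, in a range of 0.0154 to 0.0653). With the leukocyte covariate it passed.

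MCT1 and MCT4, the products of SLC16A1 and SLC16A3, are the lactate carriers most often described in mammalian tissues. Both genes have 2 copies under 1 symbol, and none of these copies passed. SLC16A1 (ENSDARG00000068572) averaged 26.6 ± 6.44 CPM with Fsh and 26.5 ± 6.49 CPM in controls (0.00 ± 0.18, edgeR adjusted p = 0.997). SLC16A1 (ENSDARG00000016963) averaged 10.7 ± 2.85 CPM with Fsh and 8.24 ± 2.27 CPM in controls (0.38 ± 0.23, edgeR adjusted p = 0.421), with 4 Fsh libraries above every control. SLC16A3 (ENSDARG00000045051) averaged 20.2 ± 11 CPM with Fsh and 20.4 ± 16.7 CPM in controls (−0.02 ± 0.48, edgeR adjusted p = 0.986). SLC16A3 (ENSDARG00000028583) averaged 1.33 ± 0.415 and 1.38 ± 0.406 CPM in Fsh and control libraries (−0.01 ± 0.28, edgeR adjusted p = 0.988). The sign of all 4 estimates changed under at least 1 alternative, and SLC16A1 (ENSDARG00000016963) stood at −0.04 with the leukocyte covariate.

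The remaining SLC16 members carry other substrates or have none assigned. SLC16A6, a ketone body carrier in zebrafish liver, averaged 33.9 ± 4.90 CPM with Fsh and 32.3 ± 3.23 CPM in controls (0.07 ± 0.11, edgeR adjusted p = 0.807). SLC16A10, which carries aromatic amino acids in mammals, averaged 18.2 ± 3.29 CPM with Fsh and 17.3 ± 2.01 CPM in controls (0.07 ± 0.14, edgeR adjusted p = 0.848). SLC16A4 had the lowest estimate of the family, with 17.9 ± 4.75 CPM in Fsh libraries and 25.0 ± 7.61 CPM in controls (−0.48 ± 0.23, edgeR adjusted p = 0.302). All Fsh libraries lay below the control mean of SLC16A4, yet the ranges of 12.3 to 24.7 and 13.0 to 32.3 CPM overlapped. The SLC16 family thus held 2 calls, both higher with Fsh, among 14 tested genes with a median log2 fold change of 0.09. Over all tested genes 0.865% were called higher.

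Within the SLC6 family 17 of 25 genes were tested and none passed in edgeR. An unadjusted p under 0.05 was found for 4, or 23.5%, beside 17.4% of all tested genes. The taurine carrier SLC6A6 was the closest. It ran from 331 through 474 to 656 CPM in Fsh libraries, against 190, 221 and 445 CPM in controls. Control library 6 stood alone among controls at 445 CPM, where the other 5 lay between 190 and 267 CPM, below every Fsh library. The estimate was 0.89 ± 0.22, a 1.86-fold difference (edgeR adjusted p = 0.0630). Leaving out control library 6 (1.11, adjusted p = 0.00617), Fsh library 1 (0.0389) or Fsh library 5 (0.0415) brought it under the threshold, with the other omissions reaching up to 0.144. DESeq2 and limma-voom called it (adjusted p = 0.00561 and 0.0452), as did edgeR with the replicate number as a block (adjusted p = 0.0115). With the leukocyte covariate the estimate was 0.63 (adjusted p = 0.183). CSAD, an enzyme of taurine synthesis, averaged 7.38 ± 1.04 CPM with Fsh and 4.83 ± 0.716 CPM in controls. Like SLC6A6 it did not pass in edgeR (0.61 ± 0.15, adjusted p = 0.0630) and passed in DESeq2 (adjusted p = 0.0215) and without control library 6 (adjusted p = 0.0379; range 0.0379 to 0.138).

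SLC6A2, the noradrenaline carrier, split the Fsh libraries. It stood at 66.5 CPM in Fsh library 1 and 76.5 CPM in Fsh library 5, and between 0.804 and 2.47 CPM in the other 4. Controls lay between 2.35 and 6.04 CPM. So 2 of 6 Fsh libraries were far above all controls and the others were within or below the control range; the estimate was 2.85 ± 1.01 (edgeR adjusted p = 0.163), and 3.79 with the leukocyte covariate (adjusted p = 0.0452), but 1.05 in limma-voom (adjusted p = 0.686). Summed neuron and glia markers in Fsh libraries 1 and 5 were 98.6 and 86.2 CPM. The sums ran from 83.4 to 109 CPM in the Fsh group and from 82.3 to 96.9 CPM in controls. A part of nerve cells in the SLC6A2 levels was not tested.

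Carriers for creatine, glycine and proline had lower means with Fsh without passing. SLC6A8, the creatine carrier, averaged 34.5 ± 9.90 CPM with Fsh and 44.6 ± 13.6 CPM in controls (−0.37 ± 0.21, edgeR adjusted p = 0.395). The highest library was control library 3 at 71.2 CPM. The glycine carrier SLC6A9 averaged 56.3 ± 9.13 CPM with Fsh and 76.1 ± 29.8 CPM in controls (−0.44 ± 0.21, edgeR adjusted p = 0.293). The proline carrier slc6a7 averaged 14.8 ± 2.91 and 19.8 ± 5.67 CPM in Fsh and control libraries (−0.41 ± 0.19, edgeR adjusted p = 0.288). SLC6A17, at low levels, averaged 1.35 ± 0.318 CPM with Fsh and 2.02 ± 0.543 CPM in controls. Its estimate was −0.57 ± 0.25 (edgeR unadjusted p = 0.0374, adjusted p = 0.256). For SLC6A9, slc6a7 and SLC6A17 all 6 Fsh libraries lay below the control mean, yet the ranges of the groups overlapped in each. SLC6A9 ran from 48.9 to 70.1 CPM in Fsh libraries and from 54.4 to 133 CPM in controls. Its highest control was library 3, and its control median was 62.9 CPM. The orphan member slc6a16a averaged 10.4 ± 1.5 CPM with Fsh and 7.14 ± 2.15 CPM in controls (0.52 ± 0.20, edgeR adjusted p = 0.195), with 5 Fsh libraries above every control.

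Among sodium-coupled neutral amino acid carriers of the SLC38 family 11 of 13 genes were tested, with estimates between −0.26 and 0.27 and no edgeR call. Their SEs ran from 0.08 for SLC38A10 to 0.37 for SLC38A8 (ENSDARG00000054196), so the lack of calls does not show equal levels. At an unadjusted p under 0.05, met by 17.4% of all tested genes, there was 1 member, SLC38A6. It averaged 17.5 ± 1.91 CPM with Fsh and 14.5 ± 1.90 CPM in controls (0.27 ± 0.12, edgeR adjusted p = 0.265). SLC38A2, the carrier known as SNAT2 that amino acid shortage induces in mammalian cells, had 360 ± 32.4 CPM with Fsh and 368 ± 41.4 CPM in controls (−0.03 ± 0.10, edgeR adjusted p = 0.904). Its sign changed with the leukocyte covariate (0.04) and with library size as the only scaling. SLC38A9, a lysosomal arginine sensor upstream of the growth kinase mTORC1, averaged 26.2 ± 2.33 CPM with Fsh and 25.8 ± 3.47 CPM in controls (0.02 ± 0.11, edgeR adjusted p = 0.949).

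Of the 6 SLC43 genes, all tested, none passed in edgeR and 1 had an unadjusted p under 0.05, which 17.4% of all tested genes met. That gene, SLC43A3 (ENSDARG00000057949), carries purine nucleobases in mammals. It averaged 38.2 ± 15.4 CPM with Fsh and 25.5 ± 5.15 CPM in controls (0.58 ± 0.23, edgeR adjusted p = 0.214), with 4 Fsh libraries above every control and the highest, Fsh library 5, at 64.9 CPM. The large neutral amino acid carrier SLC43A1 had a positive estimate in both copies, at 0.41 ± 0.21 for SLC43A1 (ENSDARG00000037748) and 0.23 ± 0.16 for SLC43A1 (ENSDARG00000037393) (edgeR adjusted p = 0.343 and 0.50). The copies of SLC43A2 stood at −0.21 ± 0.20 for SLC43A2 (ENSDARG00000036848) and −0.56 ± 0.46 for SLC43A2 (ENSDARG00000061120) (edgeR adjusted p = 0.617 and 0.575), and SLC43A2 (ENSDARG00000061120) stood at 0.36 with the leukocyte covariate.

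The proton-coupled amino acid carriers SLC36A1 and slc36a4 were both tested. slc36a4 averaged 16.8 ± 5.27 CPM with Fsh and 22.5 ± 4.31 CPM in controls (−0.42 ± 0.21, edgeR adjusted p = 0.324). SLC36A1 averaged 22.6 ± 4.80 CPM with Fsh and 24.0 ± 3.66 CPM in controls (−0.08 ± 0.15, edgeR adjusted p = 0.816), a sign that changed with the leukocyte covariate (0.17). SLC1A1 and SLC1A4 were the tested members among 8 SLC1 genes. The neutral amino acid carrier SLC1A4 averaged 31.2 ± 6.42 CPM with Fsh and 25.5 ± 9.41 CPM in controls (0.29 ± 0.24, edgeR adjusted p = 0.576), and the glutamate carrier SLC1A1 averaged 3.30 ± 0.743 and 3.62 ± 1.25 CPM in Fsh and control libraries (−0.14 ± 0.25, edgeR adjusted p = 0.822). In all, 18 members were not tested, with at most 69 counts over the Fsh libraries and 95 over the controls. Most of them were glutamate carriers of the SLC1 family and SLC6 carriers of monoamines, GABA or neutral amino acids.

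A few members had libraries that stood far apart from the rest of their group. The cationic amino acid carrier slc7a2, which in mammals supplies arginine to activated macrophages, was named after its values were seen. It lay between 0 and 1.23 CPM in 5 Fsh libraries and at 28.3 CPM in Fsh library 5. In controls it lay between 18.6 and 51.3 CPM in 5 libraries and at 0.838 CPM in control library 6. A single library of each group thus went the other way. With all libraries slc7a2 had an estimate of −2.41 ± 1.06 (edgeR adjusted p = 0.260). Without Fsh library 5 it passed as lower with Fsh (−5.38, adjusted p = 0.0103), where the other omissions gave up to 0.411, and with the leukocyte covariate it stood at −2.62 without passing.

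SLC16A3 (ENSDARG00000045051), slc6a14 and SLC43A2 (ENSDARG00000061120) had the same 3 highest libraries, in differing order. slc6a14, a carrier of neutral and cationic amino acids also named after its values were seen, stood at 26.9 CPM in Fsh library 5 and at 20.5 and 14.8 CPM in control libraries 2 and 3. The other 9 libraries lay at or under 7.14 CPM. SLC16A3 (ENSDARG00000045051) stood at 39.8 CPM in Fsh library 5 and at 46.4 and 36.7 CPM in control libraries 2 and 3, with the others at or under 22.9 CPM. The 3 libraries had leukocyte marker sums of 1498 CPM for Fsh library 5 and of 1987 and 1429 CPM for control libraries 2 and 3. Control library 6, with a sum of 1715 CPM, had 10.8 CPM of SLC16A3 (ENSDARG00000045051) and 2.27 CPM of slc6a14, although its sum was the second highest of all libraries. By the mean log2 CPM of the same markers, the measure used as the covariate, control library 6 stood at 3.87, below control libraries 1, 2, 3 and 5 at 4.01, 4.92, 4.25 and 4.37, and Fsh library 5 stood at 4.77. A part of leukocytes in these levels was not tested, and the covariate cannot separate it from the group.

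**Figure D3:**
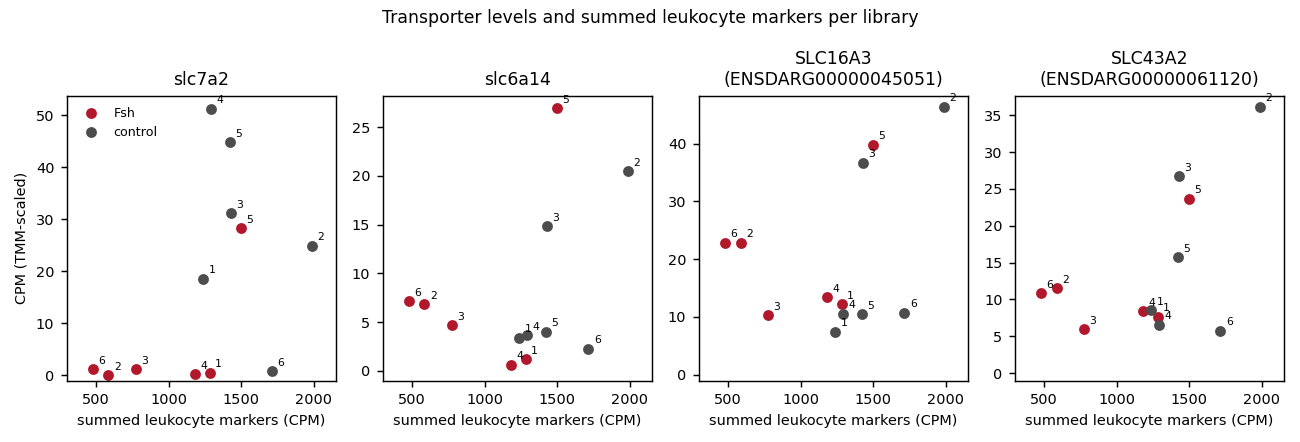
Level of 4 transporter genes (y axes, CPM) against the summed leukocyte markers of the same library (x axes, CPM), with Fsh libraries in red, control libraries in grey and the library number beside each point. Fsh library 5 lies with control libraries 2 and 3 in the 3 right-hand panels, and control library 6 lies low in all 4, with a marker sum of 1715 CPM but a mean log2 CPM of the markers of 3.87, below 4 of the other 5 controls.

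Genes around the transporters were read from lists of their pathways. Among 31 tested genes of lactate and pyruvate supply there was 1 call, higher with Fsh, beside 0.865% of all tested genes. The median log2 fold change was 0.09 beside 0.00 over all tested genes. An unadjusted edgeR p under 0.05 was found for 4, beside 17.4% of all tested genes. DESeq2 and limma-voom called 1 each, beside 4.70% and 1.87% of all genes. The gene that rose was MPC2 (ENSDARG00000037679), a subunit of the carrier that takes pyruvate into mitochondria. It ran from 2.77 through 9.17 to 12.0 CPM in Fsh libraries, against 1.41, 1.82 and 2.56 CPM in controls. The groups did not overlap, and Fsh libraries 2 and 6 were the lowest of theirs. It rose 4.24-fold (2.08 ± 0.36, edgeR adjusted p = 0.0131) and passed under all 9 other settings and without any 1 library. The other copy, MPC2 (ENSDARG00000024478), averaged 22.3 ± 4.37 CPM with Fsh and 20.5 ± 4.37 CPM in controls (0.12 ± 0.16, edgeR adjusted p = 0.762), and its partner subunit MPC1 averaged 15.9 ± 2.32 and 14.8 ± 1.59 CPM in Fsh and control libraries (0.10 ± 0.12, edgeR adjusted p = 0.714). BSG, basigin, which escorts MCT1 and MCT4 to the cell surface, averaged 204 ± 10.7 CPM with Fsh and 208 ± 24.2 CPM in controls (−0.03 ± 0.09, edgeR adjusted p = 0.906). The lactate dehydrogenase gene LDHB averaged 156 ± 22.2 CPM with Fsh and 142 ± 7.77 CPM in controls (0.14 ± 0.10, edgeR adjusted p = 0.501).

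Of 31 genes of amino acid sensing by mTORC1, 1 rose and none fell, beside 0.865% and 0.766% of all tested genes. The median log2 fold change was 0.04. An unadjusted edgeR p under 0.05 was found for 6, beside 17.4% of all tested genes. DESeq2 and limma-voom called 1 each, beside 4.70% and 1.87% of all genes. SESN1, a sestrin that restrains mTORC1, ran from 99.9 through 126 to 192 CPM in Fsh libraries, against 41.0, 61.1 and 89.9 CPM in controls. No Fsh library lay within the control range, and control library 6 was the highest control. SESN1 rose 2.18-fold (1.12 ± 0.22, edgeR adjusted p = 0.0253). Its call was lost without control library 1, 4 or 5 (edgeR adjusted p = 0.0532, 0.0626 and 0.0668), likewise without any of Fsh libraries 2, 3 and 6 (0.0642, 0.0594 and 0.0530), in a range that began at 0.0106, and with the leukocyte covariate (0.94, adjusted p = 0.0912). MTOR itself averaged 217 ± 21.0 CPM with Fsh and 271 ± 60.9 CPM in controls (−0.32 ± 0.15, edgeR adjusted p = 0.276).

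Of 31 genes of the amino acid stress response, 1 rose and none fell, with a median of 0.03. The shares of all tested genes were 0.865% higher and 0.766% lower. An unadjusted edgeR p under 0.05 was found for 8, beside 17.4% of all tested genes. DESeq2 called 2 and limma-voom 0, beside 4.70% and 1.87% of all genes. EIF4EBP3, which binds the cap-binding factor eIF4E and slows translation, averaged 18.4 ± 5.18 CPM with Fsh and 9.60 ± 1.98 CPM in controls. Its groups overlapped, at 11.6 to 24.3 CPM with Fsh and 6.84 to 12.9 CPM in controls. It rose 1.91-fold (0.93 ± 0.20, edgeR adjusted p = 0.0395), a call lost without control library 1, 2, 3, 4 or 5 (edgeR adjusted p = 0.0848, 0.0655, 0.0633, 0.0810 and 0.102), likewise without any of Fsh libraries 2, 3 and 6 (0.0982, 0.0816 and 0.0774), in a range that began at 0.0129. It was also lost in limma-voom (0.87, adjusted p = 0.0537) and with the leukocyte covariate, where the estimate was 0.95 (adjusted p = 0.0713).

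The lists for glutamate and glutamine metabolism, creatine and taurine handling, and other amino acid and peptide carriers held 19, 7 and 17 tested genes and no edgeR call. At an unadjusted p under 0.05 they held 6, 1 and 2 genes, DESeq2 called 1, 1 and 0, and limma-voom called 0 in each, beside 17.4%, 4.70% and 1.87% of all genes. Their median log2 fold changes were 0.11, 0.09 and −0.00. GOT2, the mitochondrial aspartate aminotransferase, averaged 37.2 ± 3.92 CPM with Fsh and 26.9 ± 5.20 CPM in controls. Its groups did not overlap, and the estimate of 0.47 ± 0.14 passed in DESeq2 (adjusted p = 0.0345) and not in edgeR (adjusted p = 0.0962). The mitochondrial glutamate carrier slc25a18 averaged 20.5 ± 3.14 CPM with Fsh and 15.3 ± 2.29 CPM in controls (0.42 ± 0.14, edgeR adjusted p = 0.139), and passed without Fsh library 5 (adjusted p = 0.0427; range 0.0427 to 0.275).

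**Figure D4:**
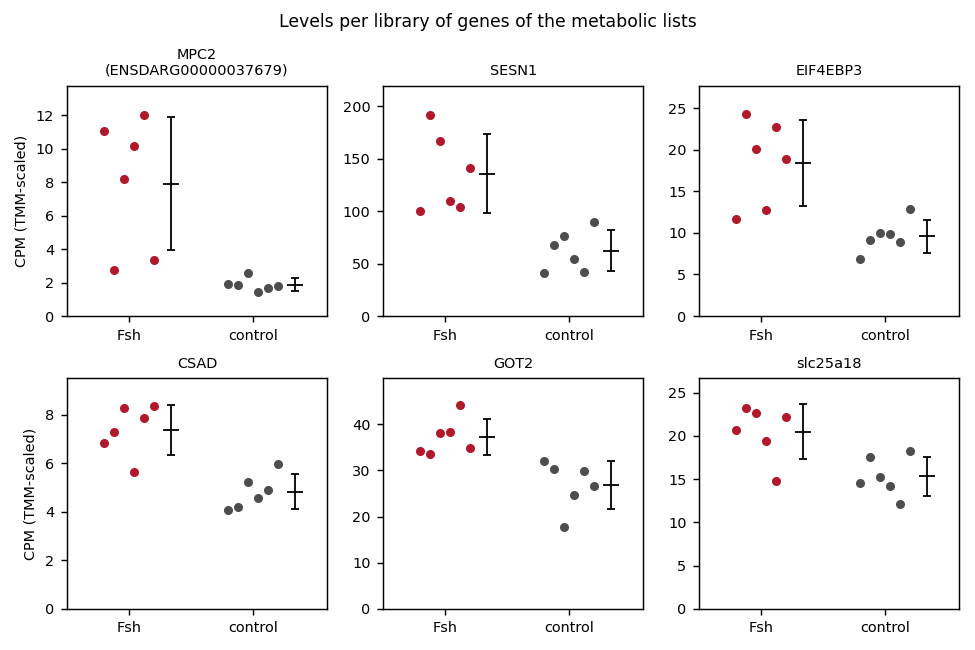
Level in each library (y axes, CPM from 0) of 6 genes of the metabolic lists, with Fsh libraries in red left of control libraries in grey; bars give the mean ± SD of 6 libraries. MPC2 (ENSDARG00000037679) reaches 12.0 CPM with Fsh and at most 2.56 CPM in controls, while EIF4EBP3, CSAD and slc25a18 overlap between the groups.

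**Figure D5:**
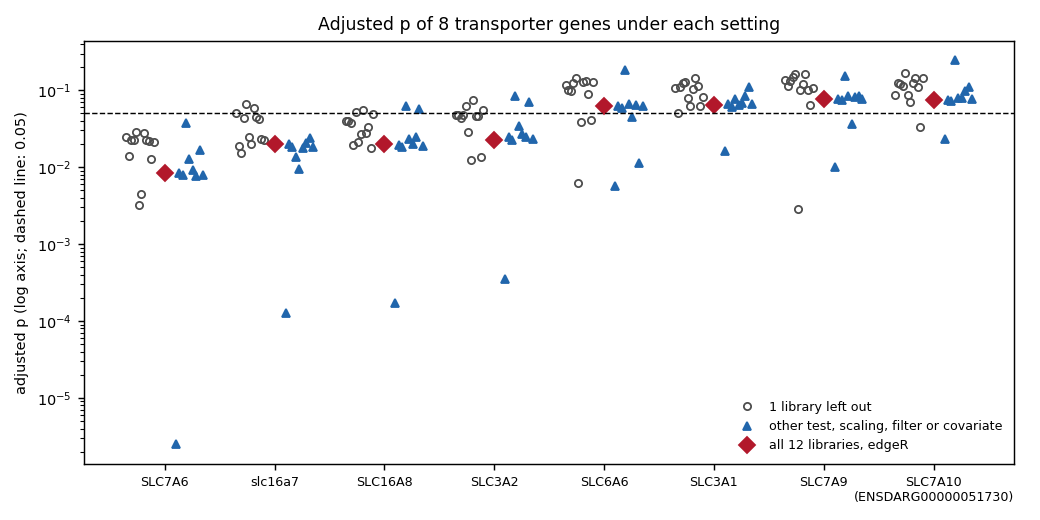
Adjusted p (y axis, log scale, dashed line at 0.05) of 8 transporter genes: all 12 libraries in edgeR (red diamonds), 1 library left out (open circles) and 9 other settings (blue triangles). SLC7A6 stays under the line in every setting shown, and the other 3 called genes cross it in some. SLC6A6, SLC3A1, SLC7A9 and SLC7A10 (ENSDARG00000051730) lie above it with all libraries. SLC3A1 falls under it in DESeq2 alone, the other 3 in DESeq2 and at least 1 more setting.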

How the data were processed

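Per the labels' protocols, total RNA of testis tissue was made into Illumina TruSeq libraries. The submitters' processing notes name CASAVA 1.8, STAR 2.3, HTSeq and the genome build Zv9. The sources used here do not state the annotation release, the strand setting or the treatment of reads matching several genes. Each deposited file holds raw counts per Ensembl gene ID as whole numbers. A symbol table named 21939 of 33737 IDs, in part with human-style symbols; 13 symbols are shared by 27 of the 87 members, and these are printed with their ID. Sequences, gene lengths and coordinates were not used here, so CPM is not corrected for length and gives no order of levels between genes; it served to pick named members, and the ratio of copies was compared between groups only; the neighbouring position of SLC7A6 and SLC7A6OS was read from the RefSeq table of the GRCz12tu assembly.

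Counts were tested in R 4.3.3 by edgeR 4.0.16 (quasi-likelihood), with TMM scaling (factors 0.891 to 1.05) and filterByExpr, without covariates, over 19317 genes. Levels are CPM scaled by TMM. The SE is the log2 fold change divided by the root of F. Alternatives used DESeq2 1.42.0, limma-voom (limma 3.58.1), other scalings and filters, a robust fit, the replicate number as a block, a leukocyte covariate and the omission of each library. The code was tested on simulated counts. Replicate libraries all differed beyond sampling noise (chi-square per degree of freedom of at least 5.43). Copies were compared by exact permutation in scipy 1.17.1 where at least 1 was called.

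The members and lists were chosen with earlier results of these data known. Named members were every called one, the smallest p and highest CPM of each family, the 12 smallest p overall and 20 fixed symbols; from each pathway list, called genes (at most 4) or the smallest p. SLC7A6OS, SLC7A7, SLC7A10 (ENSDARG00000008100), slc7a2, SLC16A4, SLC16A10, slc6a7, SLC6A9, SLC6A11, slc6a11a, SLC6A17, slc6a14, SLC38A8 (ENSDARG00000054196), SLC38A9, SLC38A10, SLC1A1, BSG, LDHB, MPC1, MPC2 (ENSDARG00000024478), MTOR and SYCP1 fall outside this rule and were chosen after their values were seen. Where nothing says that libraries came from separate fish, p-values measure the spread between these libraries.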

Additional observations from a re-analysis of the deposited data

Results flagged for a closer look

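In a group of 6 libraries a single library was marked by its gap to the next library. The mark was given when this gap was larger than Dixon's critical value allows for the range of the group. In all, 82 groups were examined, and chance marks about 1 in 20 where values are normally distributed. The values compared were CPM without a log, for which that rate can differ. This rate does not apply to slc7a2, slc6a14 and SLC6A11, which were picked after their values were seen. It is not assured for genes named for their p or CPM in these data. Marked libraries follow with their values. In Fsh library 5 the high values were slc7a2 at 28.3 CPM (others up to 1.23), slc6a14 at 26.9 CPM (others up to 7.14), SLC16A1 (ENSDARG00000068572) at 38.9 CPM (others up to 28.1), SLC36A1 at 31.6 CPM (others up to 22.7) and SLC43A2 (ENSDARG00000061120) at 23.6 CPM (others up to 11.5). The cystine carrier slc7a11 had 0.698 CPM in Fsh library 5, from 7 counts, and 0.512 CPM in control library 3, from 4 counts.

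In control library 6 SLC6A6 stood at 445 CPM (others up to 267), SLC7A9 at 11.7 CPM (others up to 4.51) and the GABA carrier SLC6A11 at 28.2 CPM (others up to 5.24). With all libraries SLC6A11 had an estimate of −0.87 ± 0.70 (edgeR adjusted p = 0.561). The related member slc6a11a went the other way, at 0.86 ± 0.43 (edgeR adjusted p = 0.322). In control library 3 SLC6A8 stood at 71.2 CPM (others up to 43.1), and in control library 4 slc7a1a stood at 4.34 CPM (others up to 2.99).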

How the results depend on the processing

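The count of 315 called genes was 1087 in DESeq2 and ran from 95 to 758 when single libraries were left out. The count of 4 members called higher was 8 in DESeq2 and 1 to 6 over the omissions; members called lower numbered 0, and 1 (slc7a2) without Fsh library 5. Without control library 5 or Fsh library 2 SLC7A6 was the 1 member called. Over the omissions the lists for the stress response and mTORC1 sensing, with 1 call each, held 0 to 3 and 0 to 2. The difference in the log2 ratio of SLC3A2 to slc3a2a, 0.05, ran from −0.0428 to 0.233 over the omissions, turning sign in 4. Some signs turned. With the leukocyte covariate the values were −0.0207 for SLC7A3 (ENSDARG00000020645), 0.17 for SLC36A1, 0.0398 for SLC38A2, −0.0401 for SLC16A1 (ENSDARG00000016963), 0.0816 for SLC16A3 (ENSDARG00000028583), 0.77 for SLC16A3 (ENSDARG00000045051), 0.36 for SLC43A2 (ENSDARG00000061120) and 0.94 for slc6a14. With library size alone they were 0.00323 for SLC38A2, 0.0219 for SLC16A3 (ENSDARG00000028583) and 0.0234 for SLC16A3 (ENSDARG00000045051), which was 0.11 in limma-voom. SLC16A1 (ENSDARG00000068572) was −0.000604 in DESeq2, −0.00253 with RLE factors and −0.00410 in limma-voom, and SLC6A11 was 0.0823 in limma-voom. Over the omissions SLC38A2 ran from −0.0920 to 0.0190, slc7a1a from −0.143 to 0.0912, SLC16A3 (ENSDARG00000028583) from −0.149 to 0.0769, SLC16A3 (ENSDARG00000045051) from −0.34 to 0.39, SLC16A1 (ENSDARG00000068572) from −0.138 to 0.0931, slc6a14 from −1.01 to 0.47 and SLC6A11 from −1.11 to 0.45. The cause was not tested.

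Libraries of equal number were compared for pairing. Their deviations from the group means correlated at 0.01 to 0.27 across genes, and 2 of 6 Fsh libraries matched their own number best. This does not exclude pairing. The labels do not state it, and the numbers were not taken as pairs in the main fit. With the replicate number as a block 381 genes and 3 members were called, SLC7A6, slc16a7 and SLC6A6; SLC16A3 (ENSDARG00000045051) was at 0.20, SLC3A2 at 0.56 (adjusted p = 0.0710) and SLC16A8 at 0.93 (adjusted p = 0.0565). The filter on low counts kept 18 members out of the test, with at most 3.67 CPM in any library.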
